A study of Homo sapiens with 12 samples.

Results

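The genes described here are the classical cadherins CDH1, CDH2 and CDH3 together with 7 genes that mark or control the epithelial and mesenchymal states, EPCAM, VIM, SNAI2, ZEB1, ZEB2, ESRP1 and ESRP2. They were chosen by symbol from the deposited table of 13951 genes, and 8 of the 10 had a row in it. SNAI2 and ZEB1 were not analysed here. Expression was measured by RNA-seq in CWR22Rv1 cells, a human epithelial prostate cancer line derived from a xenograft that had relapsed after castration. The 12 libraries formed 4 groups of 3 replicates. Control cells carried Cas9 and no guide RNA, LV-MEIS1 cells expressed lentiviral MEIS1, HOXB13ko cells had been edited with CRISPR/Cas9 at HOXB13, and HOXB13ko-LV-MEIS1 cells were HOXB13ko cells given the MEIS1 lentivirus. All cells were kept in puromycin and cultured for 48 h before RNA was taken. According to the methods, HOXB13ko was 1 pool recombined from 6 clonal lines, so both HOXB13ko groups come from that pool. The methods do not say whether LV-MEIS1 cells carried Cas9, so MEIS1 cannot be told apart from the difference in vector between LV-MEIS1 and Control.

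Classical cadherins are transmembrane proteins that join neighbouring cells, with a cytoplasmic tail that binds catenins and through them the actin cytoskeleton. CDH1 encodes E-cadherin, the cadherin of most epithelia, and CDH2 encodes N-cadherin, which is known from neural and mesenchymal cells. In epithelial-mesenchymal transition (EMT), cells are known to exchange E-cadherin for N-cadherin and keratin filaments for vimentin, and in prostate cancer such an exchange has been associated with invasive disease. MEIS1 and HOXB13 are homeodomain transcription factors, and the design asked what MEIS1 changes in cells with and without HOXB13.

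Values are CPM, reads of a gene scaled to the size of its library. A gene was taken as called where it passed limma's treat, which tests against a fold change of 1.5, at an adjusted p under 0.05 over all 13951 genes. Smaller differences were tested with limma's eBayes method against no change, adjusted in the same way. Fold changes are on the log2(CPM + 0.5) scale, which understates those of low genes, and are given ± their standard error. Nothing in the labels says that replicates were separate cultures, so p-values measure the spread between these libraries, which may be technical.

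MEIS1 averaged 4.25 ± 0.20 CPM in Control, 47.4 ± 2.0 in LV-MEIS1, 3.56 ± 0.12 in HOXB13ko and 29.7 ± 0.36 in HOXB13ko-LV-MEIS1 (SD, n = 3). HOXB13 mRNA went against its label, with 196 ± 17 CPM in Control and 327 ± 20 CPM in the libraries labelled HOXB13ko. A gene total cannot show whether the edited mRNA makes protein. According to the methods, western blots verified the knockout in each clone of the pool. Since the mRNA itself does not show the loss, the 2 groups with the edit are referred to by their labels throughout. All 6 markers of luminal prostate epithelium were listed, with summed levels of 2644 to 2739 CPM in Control, 2117 to 2170 in LV-MEIS1, 2725 to 2744 in HOXB13ko and 2706 to 2814 in HOXB13ko-LV-MEIS1, and 1 of them was called lower in LV-MEIS1 than in Control. None of the 4 basal, 4 endothelial or 4 leukocyte markers was listed. In bulk RNA, fewer cells of a type and less RNA per cell cannot be told apart.

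Of the 8 genes, CDH2 and VIM were the ones called in any comparison. In LV-MEIS1 against Control, 1 of 8 was called higher (CDH2) and 1 lower (VIM), where treat called 3.99% of all genes, 1.75% higher and 2.24% lower. In the libraries labelled HOXB13ko against Control, 1 of 8 was called higher (CDH2) and 0 lower, against 1.41% of all genes, 0.652% higher and 0.76% lower. In HOXB13ko-LV-MEIS1 against HOXB13ko, treat called 0 of 8 and eBayes 0 of 8, and in this comparison treat called only 0.00717% of all genes and eBayes 0.0502%. In HOXB13ko-LV-MEIS1 against LV-MEIS1, treat called 0 of 8, while 6.71% of all genes were called, 3.29% higher and 3.42% lower.

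The eBayes test passed more of the 8 genes, with small folds, and it also passed a large part of all genes. It passed 4 of 8 for LV-MEIS1 against Control (44.5% of all genes). For HOXB13ko against Control it passed 6 of 8 (32.9%), and for HOXB13ko-LV-MEIS1 against LV-MEIS1 3 of 8 (50.1%). The libraries of the compared groups did not overlap for 4 of 8 genes in LV-MEIS1 against Control, where this held for 51.3% of all genes. They did not overlap for 7 of 8 genes in HOXB13ko against Control (44.9% of all genes), for 2 of 8 in HOXB13ko-LV-MEIS1 against HOXB13ko (21.1%) and for 5 of 8 in HOXB13ko-LV-MEIS1 against LV-MEIS1 (58.3%). Apart from the HOXB13ko against Control comparison, these shares lie near those of all genes. Both comparisons against Control use the same 3 Control libraries.

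**Figure D1:**
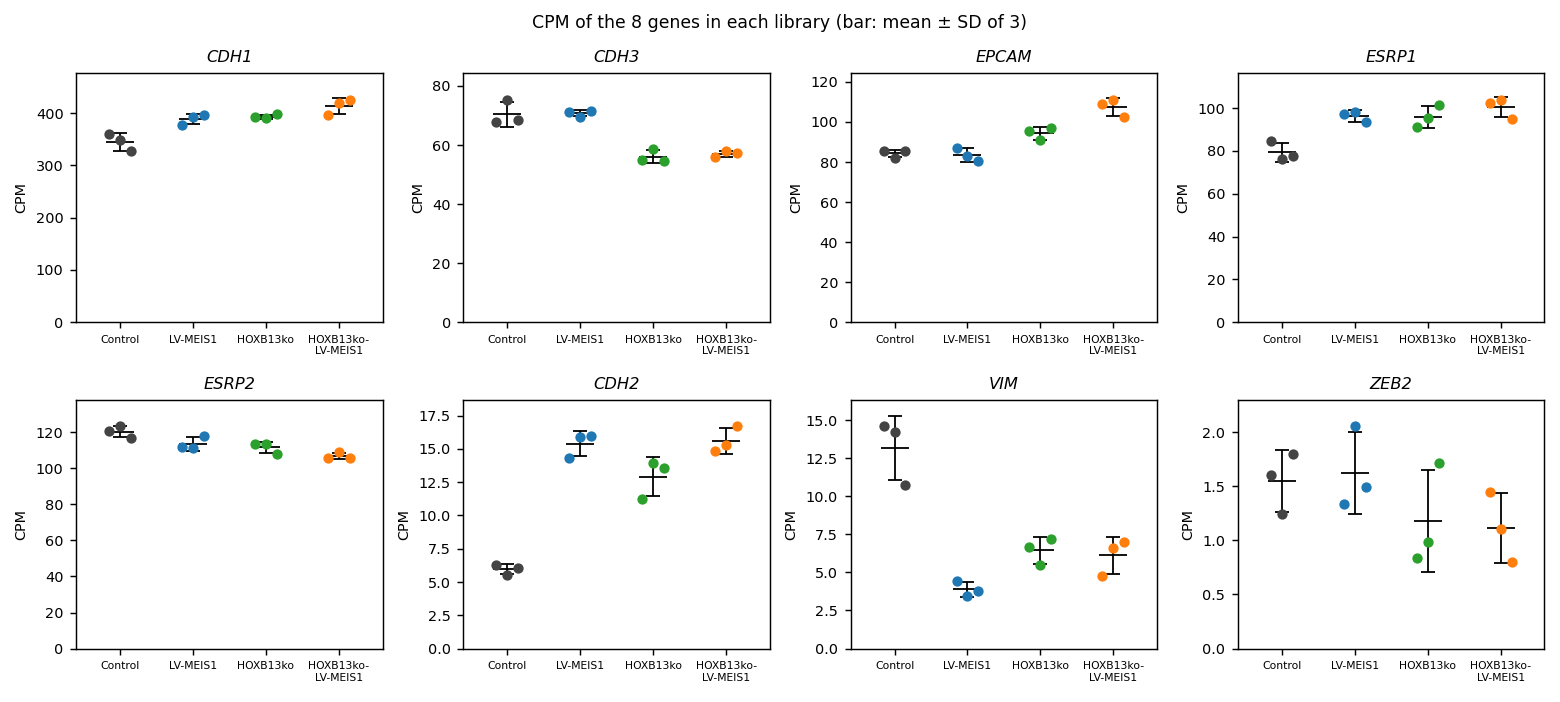
Each panel plots CPM (vertical axis, from 0) of 1 gene in the 12 libraries by group, 1 point a library, with a bar at the mean ± SD of 3. CDH2 lies at 5.54 to 6.28 CPM in Control and at 11.2 to 16.7 CPM in the other libraries, and VIM lies at 10.8 to 14.6 CPM in Control and at 3.46 to 7.17 CPM elsewhere.

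CDH2 had its lowest level in Control and was higher in each of the other groups. Its 3 Control libraries held 6.28, 5.54 and 6.05 CPM and the LV-MEIS1 libraries 14.3, 15.9 and 15.99 CPM. The libraries labelled HOXB13ko held 11.2, 13.96 and 13.6 CPM, and the libraries with both changes (HOXB13ko-LV-MEIS1) held 14.8, 15.3 and 16.7 CPM. No library of the other groups came down to the Control range, HOXB13ko lay below both MEIS1 groups without overlap, and the ranges of the MEIS1 groups overlapped. CDH2 was 2.46-fold higher in LV-MEIS1 than in Control (log2 fold change 1.30 ± 0.10, adjusted p = 9.88e-05 by limma treat). It was 2.07-fold higher in the libraries labelled HOXB13ko (1.05 ± 0.10, adjusted p = 0.0132 by limma treat). The HOXB13ko call was lost without Control replicate 2 (adjusted p = 0.068 by limma treat), without HOXB13ko replicate 2 (0.091) or without HOXB13ko replicate 3 (0.078), and in a fit of only the libraries compared (0.068), with log2 fold changes of 0.99 to 1.05 in these fits. Adding MEIS1 to the HOXB13ko pool gave a difference of 0.27 ± 0.10 (adjusted p = 0.236 by limma eBayes), with a 95% confidence interval from 1.04-fold to 1.39-fold that is not adjusted for the number of genes.

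VIM encodes vimentin, the intermediate filament protein typical of mesenchymal cells, and it was highest in Control. The Control libraries held 14.6, 14.2 and 10.8 CPM and the LV-MEIS1 libraries 4.42, 3.46 and 3.75 CPM. The libraries labelled HOXB13ko held 6.69, 5.48 and 7.17 CPM, and the libraries with both changes (HOXB13ko-LV-MEIS1) held 4.75, 6.62 and 7.0 CPM. Control did not overlap any other group, LV-MEIS1 lay below the rest, and the groups labelled HOXB13ko and HOXB13ko-LV-MEIS1 overlapped. VIM fell 3.11-fold in LV-MEIS1 against Control (log2 fold change -1.64 ± 0.16, adjusted p = 0.000246 by limma treat). In the libraries labelled HOXB13ko it was 1.96-fold lower than in Control, a difference that did not pass treat (-0.97 ± 0.16, adjusted p = 0.62) and passed eBayes (adjusted p = 0.000405). HOXB13ko-LV-MEIS1 was 1.5-fold above LV-MEIS1, which passed eBayes (adjusted p = 0.00656) and not treat.

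Vimentin mRNA and N-cadherin mRNA, both textbook products of mesenchymal cells, thus differed from Control in opposite directions in LV-MEIS1. VIM shares 656 of its 5176 annotated exon bases (12.7%) with the antisense gene VIM-AS1 on the other strand. Quantification did not use strand, so strand did not separate the reads in the shared bases, and their division between the genes is an estimate. VIM-AS1 averaged 4.07 CPM in Control, 1.81 in LV-MEIS1, 1.88 in HOXB13ko and 1.13 in HOXB13ko-LV-MEIS1, and was lower in LV-MEIS1 by eBayes (log2 fold change -0.99 ± 0.17, adjusted p = 0.00029 by limma). Markers of neuroendocrine cells differed from Control in the same direction as VIM. Of 5 such markers 2 were listed, CHGB and SYP, and their summed level was 22.0 to 24.0 CPM in Control, 1.64 to 2.40 in LV-MEIS1, 4.89 to 5.54 in HOXB13ko and 4.82 to 5.71 in HOXB13ko-LV-MEIS1. Both were called lower in LV-MEIS1 and in HOXB13ko against Control, where treat called 2.24% and 0.76% of all genes lower. Of 7 fibroblast markers 2 were listed, PDGFRB and COL1A1, and their sum was 14.6 to 17.9 CPM in Control, 30.2 to 34.9 in LV-MEIS1, 19.1 to 20.8 in HOXB13ko and 16.2 to 18.9 in HOXB13ko-LV-MEIS1. PDGFRB averaged 1.41 CPM in Control and 0.266 CPM in LV-MEIS1, and the rest was COL1A1. The part of these markers in the VIM and CDH2 results was not tested.

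The effect of MEIS1 was compared between cells without and with the HOXB13 edit as (LV-MEIS1 - Control) - (HOXB13ko-LV-MEIS1 - HOXB13ko). Treat called 1 of 8 genes lower on this difference (VIM) and 0 higher, against 2.93% of all genes, 1.31% higher and 1.62% lower. For VIM the MEIS1 effect was -1.64 without the edit and -0.08 with it, a difference of -1.56 ± 0.22 (log2, adjusted p = 0.0144 by limma treat). For CDH2 it was 1.30 and 0.27, a difference of 1.03 ± 0.14 that passed eBayes (adjusted p = 7.04e-05) and missed treat (adjusted p = 0.0859), with a call by treat when HOXB13ko replicate 1 was left out (adjusted p = 0.025). By eBayes the 8 genes gave 1 higher (CDH2) and 2 lower (EPCAM and VIM), where 34.2% of all genes passed. The HOXB13ko libraries that serve as the baseline of the second effect already differed from Control for both genes, and MEIS1 mRNA was lower in HOXB13ko-LV-MEIS1 than in LV-MEIS1, as given above.

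**Figure D2:**
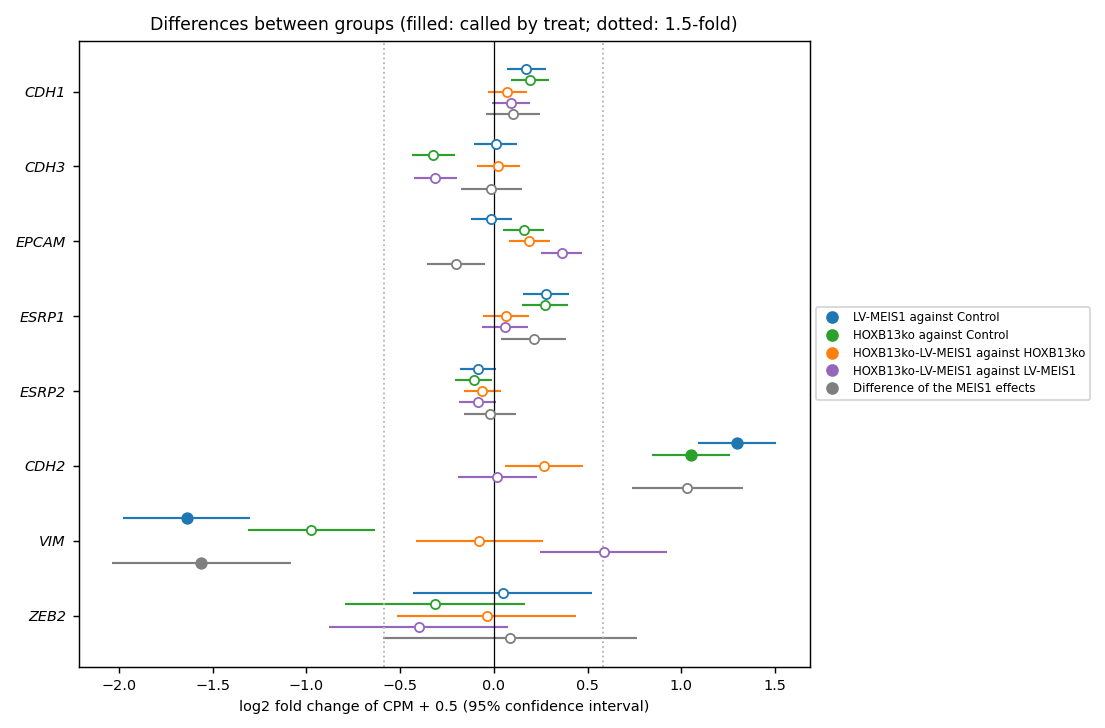
The horizontal axis is the log2 fold change of CPM + 0.5 with its 95% confidence interval, for 8 genes (rows) and 5 comparisons (colours). Filled points passed treat, and the dotted lines mark a fold change of 1.5. Only CDH2 at 1.30 and 1.05 and VIM at -1.64 and, for the difference of the MEIS1 effects, -1.56 are filled.

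The promoters of CDH2 and VIM are shown because these were the genes called and because MEIS1 and HOXB13 bind DNA. Each is the 250 bases before a RefSeq gene start (GRCh38.p14), read 5′ to 3′ on the gene's strand. CDH2 lies on the minus strand of chromosome 18 (18:27932879-28177946, GENCODE on GRCh38), and the promoter of its first listed start spans chr18:28177131-28177380. VIM lies on the plus strand of chromosome 10 (10:17228241-17237593), and its promoter spans chr10:17227991-17228240. Capitals mark the letters searched on both strands, which were TGACA (a MEIS core), TTTAT (a HOX core known for HOXB13) and CAGGTG (an E-box of the kind bound by SNAI and ZEB factors).
CDH2: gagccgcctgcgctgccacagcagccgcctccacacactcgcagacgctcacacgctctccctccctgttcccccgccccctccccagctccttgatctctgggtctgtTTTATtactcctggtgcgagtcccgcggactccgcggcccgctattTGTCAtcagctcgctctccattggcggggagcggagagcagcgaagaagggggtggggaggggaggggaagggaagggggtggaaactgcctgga
VIM: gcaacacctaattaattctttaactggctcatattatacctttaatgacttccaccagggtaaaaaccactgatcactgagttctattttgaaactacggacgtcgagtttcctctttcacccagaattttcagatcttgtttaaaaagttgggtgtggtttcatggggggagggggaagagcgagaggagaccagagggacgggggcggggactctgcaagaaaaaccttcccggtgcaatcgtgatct
The window of the first CDH2 start held 1 MEIS core, whose first base is at position -95 from the start, and 1 HOX core at -141. The table gives CDH2 a second start, whose 250-base window (chr18:28036642-28036891) held 0 MEIS cores and 2 HOX cores at 42% GC, and gene totals do not show which start was used. The VIM window held none of the searched letters. Over 35116 RefSeq promoters of the same length, 34% held the MEIS core, 32.7% the HOX core and 17.5% the E-box, so the CDH2 matches are common ones. GC content was 66.0% in the first CDH2 window and 46.0% in the VIM window, beside a median of 58.0%. Of the 8 listed genes, 3 had their promoters searched here (CDH2, VIM and ZEB2), and the others were not searched. Binding was not measured in these data, and a match is a description of the letters only.

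CDH1 was the most abundant of the 3 classical cadherins per length of transcript in every group. It averaged 71.6 ± 3.4 CPM per kb in Control, where CDH3 stood at 15.8 ± 0.95 and CDH2 at 1.48 ± 0.095 (SD, n = 3). Of the summed CDH1, CDH2 and CDH3 level per kb, CDH2 made up 1.67% ± 0.13 in Control, 3.81% ± 0.15 in LV-MEIS1, 3.30% ± 0.36 in HOXB13ko and 3.78% ± 0.15 in HOXB13ko-LV-MEIS1. CDH1 made up 80.5%, 80.4%, 83.8% and 83.8% in the same order. The ratio of CDH1 to CDH2 was 48.4 ± 3.8 in Control and 21.1 ± 0.78 in LV-MEIS1, and CDH1 remained the main cadherin mRNA of the 3 in all 12 libraries.

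CDH1 itself was slightly higher than Control in the other groups. The Control libraries held 359, 348 and 327 CPM, the LV-MEIS1 libraries 377, 393 and 396, the libraries labelled HOXB13ko 393, 390 and 398, and those labelled HOXB13ko-LV-MEIS1 396, 420 and 425. Control lay below each other group, LV-MEIS1 and HOXB13ko overlapped, and so did HOXB13ko and HOXB13ko-LV-MEIS1. The difference was 1.13-fold in LV-MEIS1 (log2 fold change 0.17 ± 0.05, adjusted p = 0.009 by limma eBayes) and 1.14-fold in HOXB13ko (0.19 ± 0.05, adjusted p = 0.00795), and neither passed treat.

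CDH3 encodes P-cadherin, which in normal prostate is known from the basal layer, and it lies next to CDH1 on chromosome 16 (CDH3 at 16:68636189-68727468, CDH1 at 16:68737292-68835537, both on the plus strand). Control libraries held 67.6, 75.3 and 68.3 CPM, LV-MEIS1 libraries 71.3, 69.6 and 71.5, the libraries labelled HOXB13ko 55.1, 58.5 and 54.7, and those labelled HOXB13ko-LV-MEIS1 55.8, 57.8 and 57.3. The groups with the edit lay below the groups without it, and within each pair the ranges overlapped. CDH3 was 1.25-fold lower in HOXB13ko than in Control (-0.32 ± 0.05, adjusted p = 0.000479 by limma eBayes) and 1.24-fold lower in HOXB13ko-LV-MEIS1 than in LV-MEIS1 (-0.31 ± 0.05, adjusted p = 0.000236). With MEIS1 and no edit the difference was 0.01 ± 0.05, and its 95% interval ran from 0.93-fold to 1.09-fold of Control.

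EPCAM encodes an epithelial cell adhesion molecule that is not a cadherin, and lies on chromosome 2 (2:47345158-47387601, plus strand). Control libraries held 85.4, 82.2 and 85.4 CPM, LV-MEIS1 libraries 87.2, 83.1 and 80.4, the libraries labelled HOXB13ko 95.2, 90.8 and 96.8, and those labelled HOXB13ko-LV-MEIS1 109, 111 and 102. HOXB13ko-LV-MEIS1 was the highest group and did not overlap any other, while Control and LV-MEIS1 overlapped. EPCAM was 1.29-fold higher in HOXB13ko-LV-MEIS1 than in LV-MEIS1 (0.36 ± 0.05, adjusted p = 3.89e-05 by limma eBayes). The MEIS1 effect was -0.01 without the edit and 0.19 with it, a difference of -0.20 ± 0.07 (adjusted p = 0.0423 by limma eBayes).

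ESRP1 and ESRP2 encode related RNA-binding proteins that direct the splicing of epithelial isoforms, among them those of FGFR2 and CD44. ESRP1 held 84.4, 76.3 and 77.5 CPM in Control, 97.3, 98.4 and 93.3 in LV-MEIS1, 91.2, 95.5 and 101 in the libraries labelled HOXB13ko, and 102, 104 and 94.98 in those labelled HOXB13ko-LV-MEIS1. Control lay below the other 3 groups, which overlapped one another. ESRP1 was 1.21-fold higher than Control both in LV-MEIS1 (0.28 ± 0.06, adjusted p = 0.00136 by limma eBayes) and in HOXB13ko (0.27 ± 0.06, adjusted p = 0.00285). Its paralog ESRP2 ranged from 106 to 123 CPM over the 12 libraries, with group means of 120, 114, 112 and 107 CPM in the same order, and passed neither test in any comparison. The ESRP2 difference between LV-MEIS1 and Control was -0.08 ± 0.05, with a 95% interval from 0.88-fold to 1.01-fold. ESRP2 lies at 16:68229033-68238102 on the minus strand, and 4.37% of its exon bases overlap NFATC3 on the other strand.

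ZEB2 encodes a zinc-finger repressor of CDH1, lies on chromosome 2 (2:144364364-144521057, minus strand) and was the lowest of the 8 genes per length. Its libraries held 1.61, 1.24 and 1.798 CPM in Control, 1.33, 2.05 and 1.49 in LV-MEIS1, 0.84, 0.98 and 1.71 in the libraries labelled HOXB13ko, and 1.44, 1.10 and 0.80 in those labelled HOXB13ko-LV-MEIS1. All 4 groups overlapped. No difference of ZEB2 was detectable at this depth, and the 95% interval of LV-MEIS1 against Control ran from 0.74-fold to 1.44-fold. The estimated depth was 17200000 to 28700000 reads per library, at which 3 reads correspond to 0.105 to 0.175 CPM, beside a lowest ZEB2 value of 0.80 CPM.

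The genes whose profile over the 12 libraries was closest to that of CDH2 were MCCC2, DSCAM and AKR1C3, by the smallest root mean square difference of centred log2 values among 11550 genes averaging at least 5 CPM. That difference was 0.17 for MCCC2, a subunit of the mitochondrial enzyme that takes part in leucine breakdown, 0.18 for DSCAM, a neural adhesion molecule, and 0.19 for AKR1C3, an enzyme of androgen synthesis. MCCC2 averaged 329 CPM in Control, 743 in LV-MEIS1, 607 in HOXB13ko and 622 in HOXB13ko-LV-MEIS1. Among the genes closest to VIM were AMER3 (0.17) and TUBB3 (0.21). TUBB3, a tubulin best known from neurons, averaged 60.9, 22.4, 32.4 and 36.1 CPM in the same order. These likenesses are descriptions over libraries that share their groups.

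The largest fold change among the listed cadherins was that of CDH6 in LV-MEIS1 against Control. Of 20 further cadherins outside the protocadherins, 10 were listed. Relative to Control, LV-MEIS1 had 0 called higher and 2 lower (CDH6 and CDH23) and HOXB13ko had 1 called lower (CDH6), and in HOXB13ko-LV-MEIS1 against LV-MEIS1 both were called higher. Over all genes, treat called 2.24% lower in LV-MEIS1 and 0.76% lower in HOXB13ko, and 3.29% higher in the last comparison. CDH6 encodes K-cadherin, a classical cadherin known from kidney. It held 55.2, 45.2 and 46.1 CPM in Control, 2.42, 3.47 and 3.48 in LV-MEIS1, 16.4, 17.4 and 18.6 in the libraries labelled HOXB13ko, and 13.3, 12.6 and 13.2 in those labelled HOXB13ko-LV-MEIS1. None of these 4 ranges overlapped. CDH6 fell 13.7-fold in LV-MEIS1 (-3.77 ± 0.12, adjusted p = 7.52e-11 by limma treat) and 2.74-fold in HOXB13ko (-1.45 ± 0.12, adjusted p = 0.000274). Per length, CDH6 stood at 5.72 ± 0.65 CPM per kb in Control, above CDH2 at 1.48, and in LV-MEIS1 at 0.366 ± 0.071, below CDH2 at 3.83 ± 0.24. CDH23, a long cadherin of hair-cell tip links, averaged 8.40 ± 0.97 CPM in Control, 3.42 ± 0.098 in LV-MEIS1, 14.6 ± 1.2 in HOXB13ko and 14.7 ± 1.3 in HOXB13ko-LV-MEIS1. It fell 2.26-fold in LV-MEIS1 (-1.18 ± 0.11, adjusted p = 0.00126 by limma treat). Against Control, the median log2 fold change of the 10 was -0.07 for LV-MEIS1 and -0.16 for HOXB13ko, beside 0.0073 and -0.0017 over all genes.

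**Figure D3:**
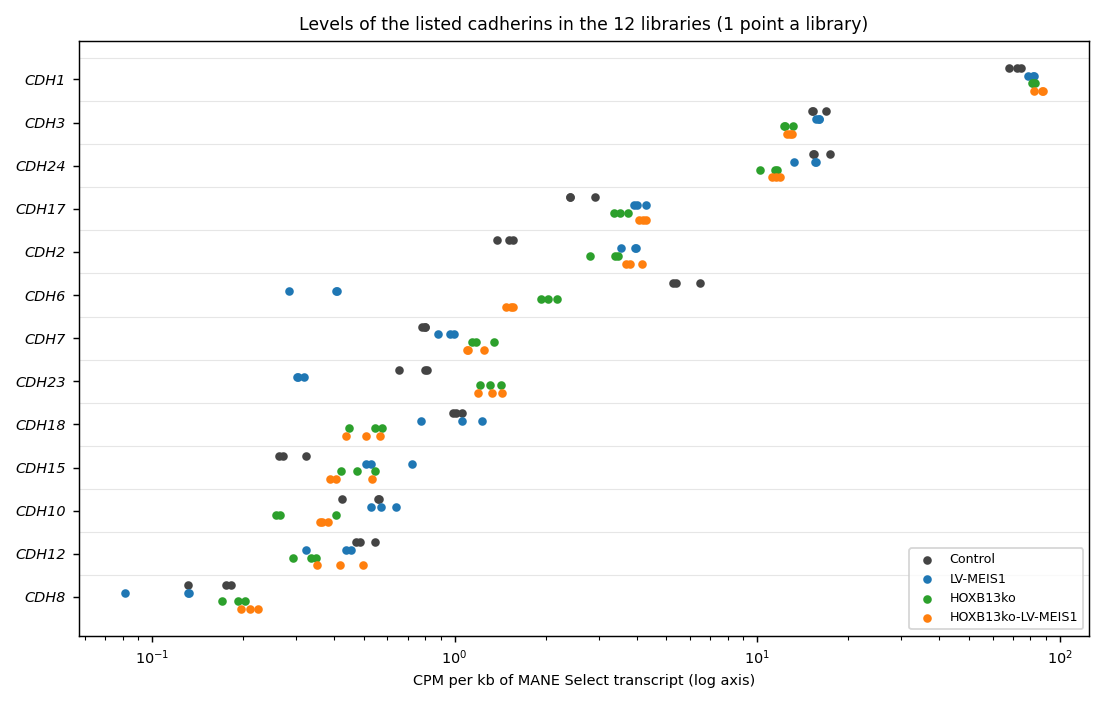
The horizontal axis is the level in CPM per kb of transcript on a log scale for the 13 listed cadherins (rows), with 1 point a library in the colour of its group. CDH1 is highest in all libraries, CDH2 averages 1.48 in Control and 3.218 to 3.885 in the other groups, and CDH6 averages 5.72 in Control and 0.366 in LV-MEIS1.

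The catenins include the proteins that bind the cadherin tail. CTNNA1, CTNNB1 and CTNND1, which encode alpha-, beta- and p120-catenin, averaged 374, 292 and 349 CPM in Control and 435, 321 and 369 CPM in LV-MEIS1, and none was called by treat in any comparison. Treat called 2.24% of all genes lower in LV-MEIS1 against Control. Of 13 catenins, nectins and partners 11 were listed, and 2 of them were called lower in that comparison. These were NECTIN4, a nectin at adherens junctions (9.02 to 2.95 CPM, -1.47 ± 0.12, adjusted p = 0.0001 by limma treat), and CTNND2, a p120 relative known from neurons (10.6 to 5.12 CPM, -0.98 ± 0.10, adjusted p = 0.019). In HOXB13ko against Control none of the 11 was called, and in HOXB13ko-LV-MEIS1 against LV-MEIS1 1 was called higher (CTNND2, 1.06 ± 0.10). JUP, which encodes plakoglobin, was not called by treat and was lower in LV-MEIS1 by eBayes (248 to 173 CPM, -0.52 ± 0.08, adjusted p = 0.00015 by limma eBayes), and it is named here after its values were seen. The CTNND2 call in LV-MEIS1 was lost without Control replicate 1 or 2 or without LV-MEIS1 replicate 1 or 2 (adjusted p of 0.083 to 0.1 by limma treat).

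All 23 tight junction and desmosome genes were listed, and they split in direction. With MEIS1 and no edit, 2 were called higher than in Control and 3 lower, beside 1.75% and 2.24% of all genes. The desmosomal cadherin DSC2 rose from 12.5 ± 2.7 to 31.1 ± 2.4 CPM and the claudin CLDN1 from 2.72 ± 0.35 to 6.39 ± 0.30 CPM. The claudin CLDN4 fell from 92.9 ± 9.4 to 47.5 ± 1.7 CPM, the desmosomal plaque protein PKP1 from 8.91 ± 1.2 to 2.42 ± 0.70 CPM, and the tight junction scaffold TJP3 from 40.7 ± 3.4 to 21.2 ± 2.5 CPM. The CLDN1 call was lost without Control replicate 2 or LV-MEIS1 replicate 1 or 3 (adjusted p of 0.072 to 0.1 by limma treat), and the TJP3 call without Control replicate 2 or 3, LV-MEIS1 replicate 1 or 2 or HOXB13ko replicate 2 (0.05 to 0.18). In HOXB13ko against Control none of the 23 was called. In HOXB13ko-LV-MEIS1 against LV-MEIS1 DSC2 was called lower (-1.55 ± 0.12).

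Of 17 keratins and other epithelial surface genes 14 were listed. None was called in LV-MEIS1 against Control, where eBayes passed 1 higher and 5 lower, beside 44.5% of all genes in either direction. In HOXB13ko against Control the luminal keratin KRT19 fell from 86.6 ± 10 to 39.0 ± 2.0 CPM and the surface glycoprotein CD24 rose from 10.3 ± 1.4 to 22.8 ± 0.53 CPM, and both were also called in HOXB13ko-LV-MEIS1 against LV-MEIS1, in the same directions. Over all genes, treat called 2.24% lower in LV-MEIS1 against Control, and 0.652% higher and 0.76% lower in HOXB13ko against Control. For HOXB13ko-LV-MEIS1 against LV-MEIS1 these shares were 3.29% higher and 3.42% lower. Of 12 transcription factors of the epithelial state 10 were listed. OVOL1, a repressor of mesenchymal factors, fell from 3.93 ± 0.88 CPM in Control to 0.99 ± 0.22 in LV-MEIS1 and 1.08 ± 0.085 in HOXB13ko, and ELF5 fell from 8.20 ± 0.77 to 2.96 ± 0.080 CPM in LV-MEIS1. In HOXB13ko-LV-MEIS1 against LV-MEIS1 KLF4 was called higher (1.21 ± 0.09) and KLF5 lower (-0.86 ± 0.07). The OVOL1 call in HOXB13ko was lost without Control replicate 1 or 2 or any one HOXB13ko replicate (adjusted p of 0.089 to 0.19 by limma treat), and that of KLF5 without LV-MEIS1 replicate 1 or 2 or HOXB13ko-LV-MEIS1 replicate 1 (0.066 to 0.088).

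Of 10 further EMT transcription factors 5 were listed, SNAI3, TWIST1, TCF3, TCF4 and KLF8. None was called against Control in either group. TWIST1, a basic helix-loop-helix factor that drives EMT, averaged 10.0 ± 0.42 CPM in Control, 17.6 ± 1.8 in LV-MEIS1, 8.12 ± 1.2 in HOXB13ko and 8.24 ± 1.0 in HOXB13ko-LV-MEIS1. It was lower in HOXB13ko-LV-MEIS1 than in LV-MEIS1 (-1.05 ± 0.12, adjusted p = 0.012 by limma treat), a call lost without LV-MEIS1 replicate 3 (0.077) or HOXB13ko-LV-MEIS1 replicate 1 (0.068). Its increase in LV-MEIS1 over Control passed eBayes (0.78 ± 0.12, adjusted p = 9.9e-05) and not treat.

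Of 25 mesenchymal matrix, cytoskeleton and surface genes 13 were listed, with no common direction. In LV-MEIS1 against Control COL1A1, a chain of type I collagen, rose from 14.5 ± 1.1 to 32.8 ± 2.5 CPM and NT5E, the surface enzyme CD73, from 1.01 ± 0.10 to 2.97 ± 0.43 CPM. The NT5E call was lost without Control replicate 1 or 3 or LV-MEIS1 replicate 1 or 2 (adjusted p of 0.057 to 0.11 by limma treat). CD44, the hyaluronan receptor, fell from 43.1 ± 1.4 to 22.5 ± 1.1 CPM. In HOXB13ko against Control 1 was called, FN1, which encodes fibronectin and fell from 46.7 ± 2.0 to 16.2 ± 1.7 CPM (-1.50 ± 0.08, adjusted p = 6.1e-06 by limma treat). In HOXB13ko-LV-MEIS1 against LV-MEIS1 4 were called higher and 2 lower, beside 3.29% and 3.42% of all genes. Among them FN1 stood at -2.57 ± 0.08, CD44 at 1.60 ± 0.05 and LOX, a collagen crosslinking enzyme, at 1.53 ± 0.12. Against Control, the median log2 fold change of the 13 was 0.05 for LV-MEIS1 and 0.14 for HOXB13ko. In HOXB13ko-LV-MEIS1 against HOXB13ko no gene of any of these lists was called.

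**Figure D4:**
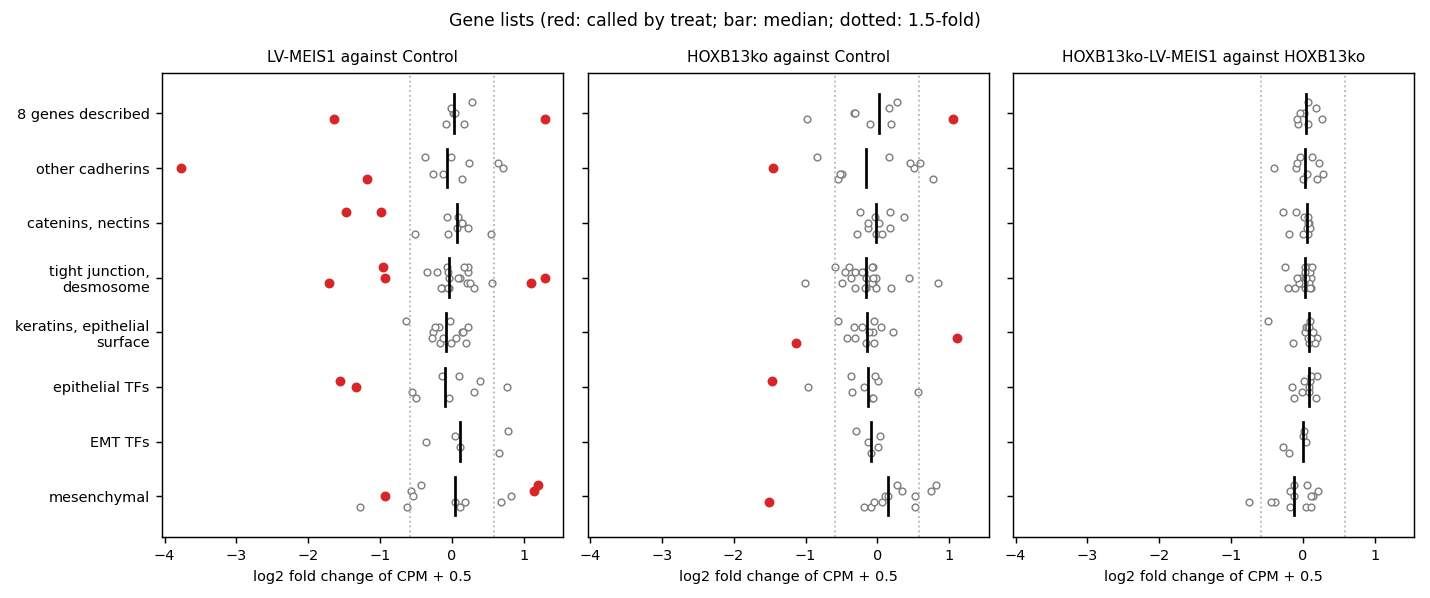
Each panel shows 1 comparison, with the log2 fold change of CPM + 0.5 on the horizontal axis and the gene lists as rows, 1 point a gene. Red points were called by treat, black bars are medians and dotted lines mark a fold change of 1.5. Called genes lie on both sides of 0 for the mesenchymal list in LV-MEIS1 against Control (2 higher, 1 lower), and none is red in HOXB13ko-LV-MEIS1 against HOXB13ko.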

How the data were processed

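The 12 libraries were sequenced as 50 bp single-end reads. The authors trimmed them with Trimmomatic 0.38, quantified Ensembl GRCh38 transcripts with kallisto 0.43.1 without strand, summed genes with tximport, removed low genes and deposited CPM normalised in edgeR 3.22.2. Of 13993 rows, 42 exact repeats were left out. CPM summed to 940564 to 992328 per library. Only 47.0% to 61.0% of values under 1 CPM lay within 0.1 reads of a whole read, so no count model was fitted and the depth is an estimate.

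Groups came from the sample labels. One mean per group was fitted to log2(CPM + 0.5) of all 12 libraries in limma 3.58.1 (R 4.3.3), with treat (fold change 1.5, trended prior) or eBayes and Benjamini-Hochberg adjustment over 13951 genes. The fit was tested on simulated data. Replicate numbers were not taken as pairs in the main fit. Correlations of deviations between same-numbered libraries were -0.209 to 0.146 over 18 pairs. Differently numbered libraries were not compared, so these values cannot show whether a number marks a batch. Levels per kb used the MANE Select transcript in GENCODE v44, and promoters came from RefSeq.

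The genes and lists were chosen with earlier results of these data known. Named list genes are at most the 3 largest called per list and comparison, the 3 catenins and the 3 genes most like each called gene, and some items under this rule are not reported here.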

Additional observations from a re-analysis of the deposited data

Results flagged for a closer look

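For 8 genes the effect of MEIS1 differed between cells without and with the HOXB13 edit by limma treat on the difference itself. The difference (log2) was -1.56 for VIM (adjusted p = 0.014), with effects of -1.64 and -0.08. It was -3.37 for CDH6 (4.3e-08), -1.18 for CDH23 (0.025), -1.07 for CD44 (0.00057), -1.03 for CLDN4 (0.034) and -1.73 for PKP1 (0.011). It was 1.32 for COL1A1 (0.00086) and 1.07 for FN1 (0.025). The calls of CDH23, CLDN4 and FN1 were lost when some single libraries were left out. That of CDH23 was lost without replicate 1 or 2 of Control, LV-MEIS1 or HOXB13ko-LV-MEIS1 or replicate 1 or 3 of HOXB13ko (adjusted p of 0.052 to 0.078 by limma treat). That of CLDN4 was lost without Control replicate 2 or replicate 2 or 3 of any other group (0.057 to 0.1), and that of FN1 without replicate 2 or 3 of Control, LV-MEIS1 or HOXB13ko or replicate 1 or 3 of HOXB13ko-LV-MEIS1 (0.052 to 0.073). Those of CDH23 and CLDN4 were also lost under other settings, CDH23 with a pseudocount of 1 (0.055) and CLDN4 with libraries scaled to an equal sum (0.051), a prior without trend (0.084) or the replicate block (0.076).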

How the results depend on the processing

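Over 21 alternatives, CDH2 and VIM kept their calls in LV-MEIS1 against Control (log2 fold changes of 1.24 to 1.35 and -1.77 to -1.53), and VIM kept its call on the difference of the MEIS1 effects in the 20 alternatives that could be fitted, with adjusted p up to 0.0483. No direction of a called value reversed. With eBayes and the fold change applied afterwards, 2 of the 8 genes were called in HOXB13ko against Control (CDH2 and VIM), 1 in HOXB13ko-LV-MEIS1 against LV-MEIS1 (VIM) and 2 on the difference (CDH2 and VIM). With only the libraries compared, 0 were called in HOXB13ko against Control. Leaving out single libraries gave 0 to 1 called there and 1 to 2 on the difference. The cause of these changes was not tested. The replicate block left every count over the 8 genes as it was (2 called in LV-MEIS1 against Control, 1 in HOXB13ko against Control, 1 on the difference). It ended the calls of CLDN4 on the difference (adjusted p = 0.076), OVOL1 in HOXB13ko (0.057) and TJP3 in LV-MEIS1 (0.062). With only the libraries compared, the calls in LV-MEIS1 of NT5E (adjusted p = 0.062 by limma treat), CTNND2 (0.091) and TJP3 (0.051) were lost. A pseudocount of 1 ended the calls of NT5E in LV-MEIS1 (0.1) and OVOL1 in HOXB13ko (0.062). A prior without trend ended the call of TJP3 in LV-MEIS1 (0.066). Among the other genes named, 67 alternative fits lost a call and 994 did not. With libraries scaled to an equal sum the CLDN4 call on the difference was lost (0.051). Another scaling moved the median of all genes by at most 0.0386 (log2). Counts per gene and strand were not used here, so overlapping genes stay unresolved.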
